A study of Mus musculus with 20 samples.

Results

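The cytosolic sulfotransferases are 10 genes of mouse liver, Sult1a1, Sult1b1, Sult1c2, Sult1d1, Sult1e1, Sult2a1, Sult2a2, Sult3a1, Gm4794 and Sult5a1, chosen by name from the 36128 genes with FPKM values (fragments scaled to exon length and to library size). They were listed by family name with no threshold on expression, though with earlier results of these data known, and all 10 had rows in the FPKM table and in both tables of read counts. These enzymes attach a sulfonate group, taken from the activated donor PAPS, to a hydroxyl or amino group of a steroid, bile acid, thyroid hormone, catechol or drug, which makes the product more soluble in water and often inactive. Members of the SULT1 family act mainly on phenols and estrogens, members of the SULT2 family on hydroxysteroids and bile acids, and SULT3 on amines. In rodent liver several of them are known as genes of the female liver, set by the sex-specific pattern of pituitary growth hormone secretion. Gm4794, also named Sult3a2, is a copy of Sult3a1 and lies near it on the same chromosome.

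Polyadenylated RNA was sequenced from the livers of C57BL/6J (B6) mice, an inbred laboratory strain, and CAST/EiJ (CAST) mice, a wild-derived inbred strain, with 5 male and 5 female livers of each strain, taken from individual mice aged 8 weeks by the labels, with no treatment named. The comparisons ask whether a gene is sex-biased in each strain, whether it differs between the strains within each sex, and whether the sex difference itself differs between the strains. Strain was taken from the library titles, because for 10 libraries (5 titled B6 female, 5 titled CAST male) a second field gave the opposite strain. Libraries held 7969482 to 35328573 counted read pairs (median 15048955).

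All 6 hepatocyte marker genes examined (Alb, Apoa1, Ttr, Tat, Asgr1, Cps1) were present in every group, and their summed FPKM was 19100 to 20200 in males and 24200 to 29500 in females of B6, and 16500 to 18200 and 19800 to 25600 in CAST. The 5 Kupffer cell markers (Clec4f, Vsig4, Cd5l, Emr1, Marco) summed to 12.4 to 24.1 FPKM in males and 29.7 to 34.6 in females of B6, and to 4.28 to 11.5 and 6.94 to 23.3 in CAST, so that they were higher in B6 females than in B6 males and higher in B6 than in CAST livers of the same sex, with no overlap. The 5 stellate cell markers (19.9 to 29.7 in B6 males, 36.7 to 41.5 in B6 females) and the 5 sinusoidal endothelial markers (15.5 to 18.6 in males, at least 19.9 in females) also separated the B6 sexes, and in CAST the sexes overlapped for both. The 5 lymphocyte markers summed to 0.8 to 1.28 FPKM in males and 1.16 to 2.43 in females of B6, and to 0.283 to 0.885 and 0.412 to 1.11 in CAST. They separated the females of the strains, while the males of the strains and the sexes overlapped. Of the erythroid markers Alas2 alone had values, at 26.9 to 36.5 FPKM in B6 males and at most 5.42 in any other group, while Hba-a1, Hba-a2, Hbb-b1 and Hbb-b2 were listed at 0 in every liver. Of the 5 cholangiocyte markers, Krt7 was listed at 0 in all CAST livers and Krt19 in the CAST males, while Epcam, Sox9 and Spp1 had values in every group. Epcam was at 0.375 FPKM in B6 males and 0.367 in B6 females, and at 0.366 and 0.438 in CAST. The summed cholangiocyte ranges overlapped between strains, at 7.33 to 24.6 in males and 5.81 to 13.3 in females of B6, and 5.57 to 9.86 and 5.6 to 9.61 in CAST. The part of these shifts in the results on the sulfotransferases was not tested, and in bulk tissue fewer cells of a type and less RNA per cell cannot be told apart. The Y-linked genes Ddx3y, Uty, Eif2s3y and Kdm5d were listed at 0 in all 20 libraries, which leaves the sex labels unchecked by them. Results that rest on libraries standing apart are given with and without them: B6 males 4 and 5 for Sult3a1 and Gm4794, and B6 female 4 for Sult2a1 and Sult2a2.

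CAST reads were aligned to a version of the mm9 genome carrying the known CAST variants and B6 reads to mm9 itself, so the strain and the genome used for mapping cannot be told apart in any comparison of strains. Across all genes, 33 had 3 counts or fewer in all 10 B6 livers together with a mean CPM (counts scaled to library size) of at least 50 in CAST, and 22 showed the opposite pattern. Only uniquely mapping reads were counted, which matters for members that are near copies of each other. On mm9, Sult2a2 (chr7:14318855-14364985, plus strand) and Sult2a1 (chr7:14381601-14422759, minus strand) are neighbours, and Gm4794 (chr10:33486230-33501921, minus strand) and Sult3a1 (chr10:33583741-33599322, plus strand) lie on either side of Gm10327 (chr10:33528303-33529304), which was not analysed here. Of the other members, Sult1b1 (chr5:87942364-87967220), Sult1d1 (chr5:87983670-87998052) and Sult1e1 (chr5:88004993-88020636) lie side by side on the minus strand, and Sult1a1 (chr7:133816379-133819946), Sult1c2 (chr17:53968962-53985664) and Sult5a1 (chr8:125666747-125682215) lie alone, also on the minus strand. Over 585 aligned bases of coding sequence, 12 differ between Sult2a1 and Sult2a2 (97.95% identity, longest identical run 151 bases), and over 882 bases, 80 differ between Sult3a1 and Gm4794 (90.93% identity, longest identical run 93 bases). The stretches of 60 coding bases in which each pair differs most are shown, read 5′ to 3′ from Gencode transcript models on mm9 (the counting itself used RefSeq genes), since only reads that cover such bases can be assigned to one gene of a pair. Capitals mark the bases that differ, at coding positions 200 to 259 in the first pair (4 differences) and 418 to 477 in the second (16 differences).
Sult2a1: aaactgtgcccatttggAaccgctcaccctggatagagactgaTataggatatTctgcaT
Sult2a2: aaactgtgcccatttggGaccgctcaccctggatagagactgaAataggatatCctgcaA
Sult3a1: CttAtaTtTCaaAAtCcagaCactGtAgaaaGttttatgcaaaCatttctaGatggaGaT
Gm4794: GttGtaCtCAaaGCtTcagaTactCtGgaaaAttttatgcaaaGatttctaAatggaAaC

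Of the 50-base windows of the Sult2a1 transcript, 33.33% occurred unchanged in another gene of the annotation and 87.47% lay within 2 mismatches of another sulfotransferase transcript. For Sult2a2 these shares were 63.39% and 94.65%, for Sult3a1 6.54% and 29.26%, and for Gm4794 8.16% and 36.49%. No window of the other members came within 2 mismatches of another member of the family. Counts of Sult2a1 and Sult2a2 can therefore be split unevenly between the genes by the mapping, or lost where a read matches both, and their sum is given beside them. The sum does not restore lost reads. Nor does it cover reads shared with other Sult2a genes, since only 54.24% of Sult2a1 windows lay within 2 mismatches of Sult2a2 itself. The count per FPKM of a gene should differ between livers by library size alone. Divided by the library's total and by its median over all genes in that library, it varied across livers with at least 20 counts by at most 1.03-fold for the 8 other members with enough counts but by 1.4-fold for Sult2a2, so that Sult2a2 counts and FPKM did not keep 1 ratio across livers.

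**Figure D1:**
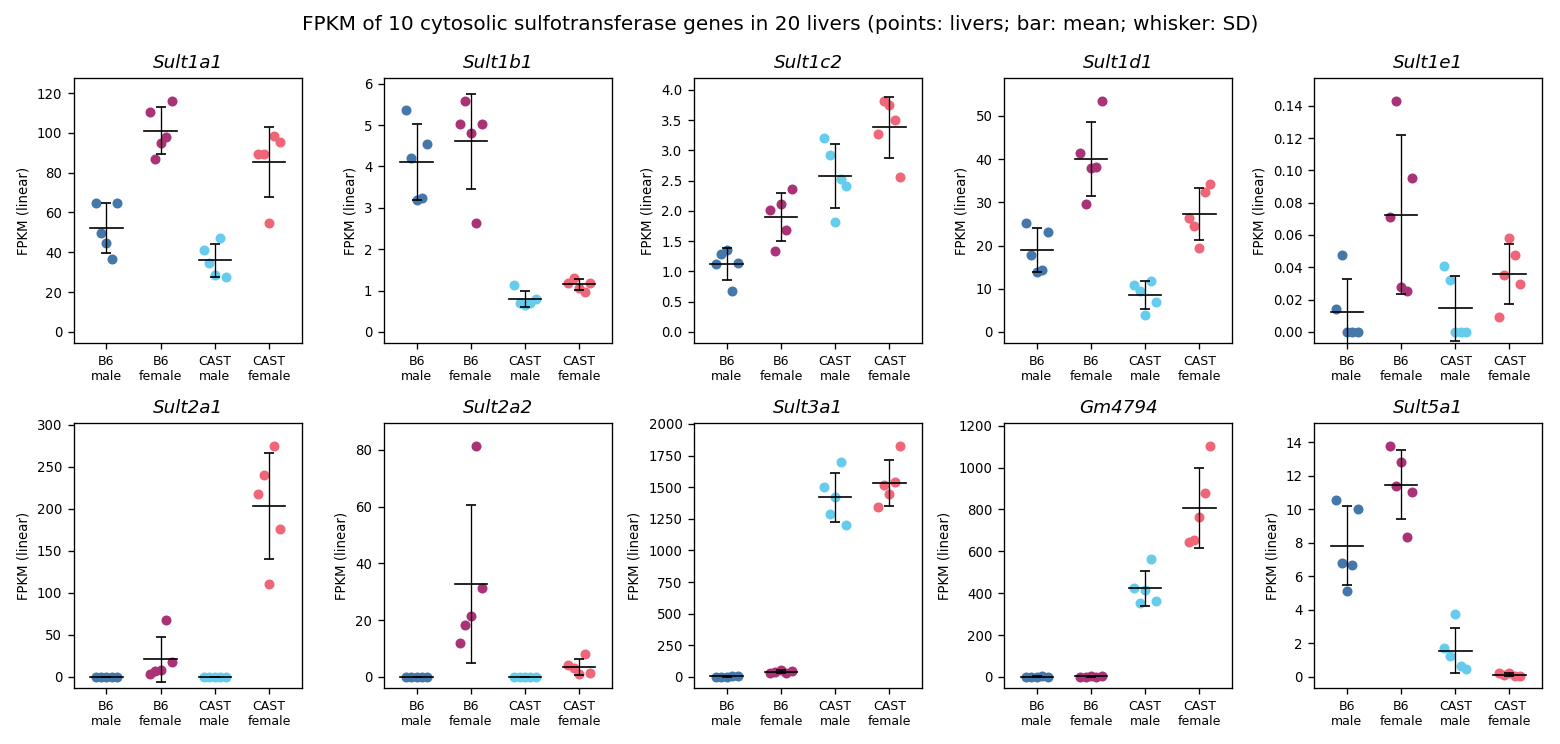
FPKM (linear y axes that differ between panels) of each member by strain and sex. Points are single livers, the horizontal bar is the mean and the whisker the SD of 5 livers. Sult3a1 and Gm4794 are far higher in CAST livers of both sexes, Sult2a1 and Sult2a2 are near 0 in males of both strains, and Sult5a1 is lowest in CAST females.

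Sult2a1 and Sult2a2, whose enzymes sulfonate hydroxysteroids such as dehydroepiandrosterone and bile acids, were female-biased in both strains and had the largest fitted sex differences of the 10 members in each. Sult2a1 reached 3.97, 6.78, 8.25, 68.0 and 17.9 FPKM in B6 females 1 to 5, and 0.0355, 0.0146, 0.0508, 0.0964 and 0 FPKM in B6 males 1 to 5. In CAST, its FPKM was 218, 240, 111, 274 and 176 in females and 0.304, 0.396, 0.0231, 0.118 and 0 in males. Every female liver lay above every male liver of its strain, with B6 female 4 well above the other B6 females. The log2 fold change, male over female, was -9.02 ± 0.96 (SE) in B6 (edgeR adjusted p = 6.00e-06) and -10.01 ± 0.39 in CAST (edgeR adjusted p = 4.27e-12). Without B6 female 4, the B6 value was -7.85 ± 0.51 (edgeR adjusted p = 2.42e-08), and without CAST male 2, which held 30 of the Sult2a1 counts of the CAST males, the CAST value was -11.11 ± 0.41 (edgeR adjusted p = 5.10e-13).

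Sult2a2 had 11.9, 18.2, 21.5, 81.2 and 31.2 FPKM in B6 females and 4.15, 3.16, 0.911, 8.16 and 1.26 FPKM in CAST females. The 5 B6 males together held 2 counts, against 3868 in the 5 B6 females, a female over male ratio of 2880 (exact 95% interval 798 to 23800, counting error only). B6 female 4 held 1899 of these counts, and without it the ratio was 1830 and the fitted log2 fold change went from -11.03 ± 0.76 to -10.39 ± 0.42 (edgeR adjusted p = 2.24e-11 for Sult2a2). No Sult2a2 count was found in any CAST male, against 750 counts in CAST females, so that expression was at least 180-fold higher in CAST females, taking 3 counts over the 5 males as the limit. Both differences were past the threshold (edgeR adjusted p = 1.97e-08 in B6 and 5.41e-05 in CAST).

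The relation of these copies to each other was not the same in the 2 strains. In the 5 B6 females, Sult2a1 stood at 0.332 to 0.837 of the FPKM of Sult2a2, whereas in the 5 CAST females it stood at 33.6 to 140 times it. Sult2a1 was accordingly higher in CAST than in B6 females, by a log2 fold change (B6 over CAST) of -3.37 ± 0.49 (edgeR adjusted p = 2.17e-06), and Sult2a2 was lower, with 2.95 ± 0.47 (edgeR adjusted p = 1.60e-05). Neither gene overlapped between the female groups. Without B6 female 4 the Sult2a1 value became -4.55 and the Sult2a2 value 2.30, both still past the threshold. Summed (Sult2a1+Sult2a2), the counts were female-biased in both strains, at -9.84 ± 0.79 in B6 (edgeR adjusted p = 1.43e-07) and -10.03 ± 0.40 in CAST (edgeR adjusted p = 4.53e-12), and higher in CAST than in B6 females, at -2.30 ± 0.41 (edgeR adjusted p = 3.95e-05). Without B6 female 4, the sum was at -8.97 ± 0.42 for sex in B6 and at -3.17 ± 0.31 between females of the strains. Between males of the strains, Sult2a1 was at -2.39 ± 1.55 (edgeR adjusted p = 0.236), at -1.26 without CAST male 2 (edgeR adjusted p = 0.685) and at -2.15 by DESeq2, which called it (DESeq2 adjusted p = 0.0447), and no fold is given for Sult2a2, with 2 counts in B6 and 0 in CAST. The difference between the strains in the sex effect could not be estimated closely for either gene, since one sex holds almost no reads (Sult2a1 0.98 ± 2.18, not past the threshold).

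**Figure D2:**
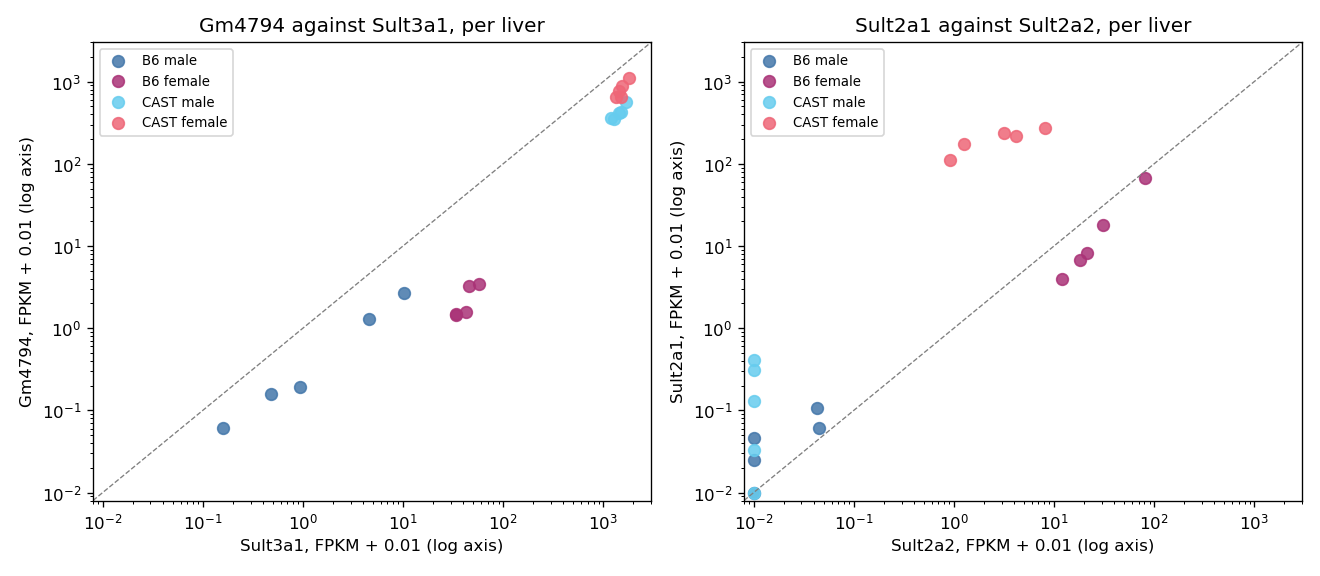
Gm4794 against Sult3a1 (left) and Sult2a1 against Sult2a2 (right) in each of the 20 livers, as FPKM + 0.01 on log axes, with the line of equal levels dashed and livers listed at 0 drawn at 0.01. CAST livers sit at the top right of the left panel, and CAST females sit above the line in the right panel while B6 females sit below it.

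Sult3a1, an amine sulfotransferase, was, with its copy Gm4794, far higher in CAST than in B6 livers, and it was sex-biased in B6 but not past the threshold in CAST. Sult3a1 had 0.927, 0.150, 0.473, 10.1 and 4.58 FPKM in B6 males 1 to 5 and 33.5, 42.3, 56.8, 33.9 and 45.1 FPKM in B6 females. In CAST, it had 1498, 1287, 1423, 1698 and 1199 FPKM in males and 1340, 1516, 1447, 1544 and 1822 FPKM in females. B6 males lay below B6 females without overlap, the CAST sexes overlapped, and every CAST liver lay above every B6 liver. The male over female log2 fold change was -3.73 ± 0.63 in B6 (edgeR adjusted p = 0.000915) and -0.19 ± 0.10 in CAST (edgeR adjusted p = 0.366). These sex effects differed between the strains by -3.53 ± 0.70 (edgeR adjusted p = 0.00495). B6 over CAST, the log2 fold change was -8.79 ± 0.66 in males (edgeR adjusted p = 6.50e-12) and -5.26 ± 0.56 in females (edgeR adjusted p = 7.97e-09).

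Gm4794 had 0.185, 0.0508, 0.147, 2.71 and 1.29 FPKM in B6 males and 1.45, 1.56, 3.46, 1.47 and 3.24 FPKM in B6 females. Its FPKM rose in CAST to 425, 354, 413, 561 and 363 in males and 644, 653, 762, 880 and 1101 in females. Only the CAST sexes were separated without overlap, with females above males. The sex difference was -1.39 ± 0.63 in B6 (edgeR adjusted p = 0.219) and -1.001 ± 0.14 in CAST (edgeR adjusted p = 0.000124), the latter barely past 2-fold and called in only 4 of the 10 fits that each left out 1 CAST liver. B6 over CAST, Gm4794 differed by -8.99 ± 0.54 in males (edgeR adjusted p = 4.10e-14) and -8.57 ± 0.52 in females (edgeR adjusted p = 5.27e-14), and the difference of its sex effects was -0.42 ± 0.62 (edgeR adjusted p = 0.912).

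B6 males 4 and 5 held the highest Sult3a1 and Gm4794 of the B6 males. They were singled out after these values were seen, so the values without both are a description, with no test, and a larger difference follows from the choice. Without both, the sex difference in B6 was -6.36 ± 0.33 for Sult3a1 and -4.12 ± 0.45 for Gm4794, the difference between males of the strains was -11.44 ± 0.38 and -11.73 ± 0.41, and the difference of the sex effects was -6.16 ± 0.36 and -3.13 ± 0.46. In the planned fits that each left out 1 liver, Gm4794 passed the threshold for sex in B6 without B6 male 4 alone (-2.47, edgeR adjusted p = 0.0113). The cause of the higher values in these 2 livers was not tested.

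The share of Gm4794 in the pair differed between the sexes of each strain. Its counts were 0.161 to 0.273 of those of Sult3a1 in males and 0.0297 to 0.0578 in females of B6, and 0.221 to 0.266 and 0.346 to 0.486 in CAST. The ratio was thus lower in B6 females than in every other group and higher in CAST females than in every other group, with no overlap, while the ranges of the male groups overlapped. Summed (Sult3a1+Gm4794), the pair was female-biased in B6 (-3.50 ± 0.64, edgeR adjusted p = 0.00186) and at -0.38 ± 0.11 in CAST (edgeR adjusted p = 0.0534), and the sex effects of Sult3a1 and Gm4794 together differed between strains by -3.10 ± 0.71 (edgeR adjusted p = 0.0164). Without B6 males 4 and 5, the B6 value of the sum was -6.16 ± 0.33 and the difference between strains -5.77 ± 0.36, again as a description.

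The 250 bases before the annotated start of each gene on mm9, at chr10:33583491-33583740 (plus strand) for Sult3a1 and chr10:33501922-33502171 (minus strand) for Gm4794, are shown because both of these neighbouring copies were higher in CAST. Capitals mark the longest run they share, 32 bases, which begins at -250 in Sult3a1, the edge of the window, and at -123 in Gm4794.
Sult3a1: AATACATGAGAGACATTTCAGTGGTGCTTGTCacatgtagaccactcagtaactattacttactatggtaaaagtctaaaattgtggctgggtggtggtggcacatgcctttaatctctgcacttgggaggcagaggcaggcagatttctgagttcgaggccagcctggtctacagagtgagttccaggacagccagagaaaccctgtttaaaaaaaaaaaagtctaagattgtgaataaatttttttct
Gm4794: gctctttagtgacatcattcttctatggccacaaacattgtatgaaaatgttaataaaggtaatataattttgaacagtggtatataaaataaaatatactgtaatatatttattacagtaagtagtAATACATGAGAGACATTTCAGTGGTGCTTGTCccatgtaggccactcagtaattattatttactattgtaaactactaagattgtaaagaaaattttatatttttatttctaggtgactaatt
Over 208 aligned bases these windows were 62.5% identical. Neither held, on either strand, the letters TTCNNNGAA bound by STAT5 and BCL6, the nuclear receptor motif AGGTCA or the core ATTGAT bound by HNF6 and CUX2, letters that occur in 7.02%, 14.02% and 6.72% of 32851 RefSeq windows of the same length (GRCm38.p6). RefSeq starts Sult3a1 6213 bases further upstream, and its window there held 1 TTCNNNGAA and 1 ATTGAT. These are letters of the B6 reference and not sites, and CAST sequence was not used here.

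Sult5a1, a member with no settled substrate, was the only one that was male-biased in any comparison. It had 10.6, 6.82, 5.12, 6.66 and 9.99 FPKM in B6 males and 13.7, 11.4, 12.8, 8.33 and 11.02 FPKM in B6 females, groups that overlapped. CAST livers were lower, with 1.70, 1.22, 3.77, 0.659 and 0.485 FPKM in males and 0.216, 0.0887, 0.252, 0.0516 and 0.0321 FPKM in females. Every CAST liver lay below every B6 liver, and every CAST female below every CAST male. The male over female log2 fold change was -0.52 ± 0.18 in B6 (edgeR adjusted p = 0.0893) and 3.37 ± 0.51 in CAST (edgeR adjusted p = 0.000244), and the sex effects on Sult5a1 differed between strains by -3.88 ± 0.55 (edgeR adjusted p = 9.63e-05). The strain difference, B6 over CAST, was 2.27 ± 0.33 in males (edgeR adjusted p = 1.64e-06) and 6.15 ± 0.43 in females (edgeR adjusted p = 1.12e-12). CAST male 3 held the highest Sult5a1 of the CAST males (185 counts). Without it the sex difference in CAST was 2.72 ± 0.43, the difference of the sex effects -3.20 ± 0.45 and the strain difference in males 2.95 ± 0.28 (edgeR adjusted p = 0.000422, 7.43e-05 and 1.68e-09). The CAST female values rest on 1 to 21 counts a liver. In a limma fit to log2(FPKM + 1), Sult5a1 in CAST was at 1.06 (limma adjusted p = 0.0711).

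Sult1a1, a phenol sulfotransferase, and Sult1d1, which acts on catechols such as dopamine, were the most abundant SULT1 members and were higher in females of both strains. Sult1a1 had 64.6, 49.8, 44.5, 36.9 and 65.0 FPKM in B6 males and 111, 86.7, 95.1, 97.7 and 116 in B6 females. In CAST it had 41.2, 34.6, 28.8, 47.3 and 27.6 FPKM in males and 89.4, 89.3, 54.9, 98.4 and 95.2 in females. The sexes did not overlap in either strain, and CAST female 3 was the lowest female. The log2 fold change of Sult1a1 was -0.93 ± 0.14 in B6 (edgeR adjusted p = 0.000372), which is under 2-fold with all livers and past it without B6 male 1 (-1.02) or without B6 male 5 (-1.03), and -1.33 ± 0.15 in CAST (edgeR adjusted p = 6.42e-06). Between the strains, Sult1a1 differed by 0.59 ± 0.16 in males (edgeR adjusted p = 0.00436) and by 0.17 ± 0.16 in females (edgeR adjusted p = 0.404).

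Sult1d1 had 25.1, 17.7, 13.95, 14.4 and 23.2 FPKM in B6 males and 41.3, 29.7, 37.9, 38.2 and 53.4 in B6 females. In CAST the values were 10.8, 9.39, 3.99, 11.8 and 6.85 in males and 26.3, 24.4, 19.5, 32.3 and 34.2 in females. Again no male overlapped with a female of its strain. The sex difference in Sult1d1 was -1.06 ± 0.17 in B6 (edgeR adjusted p = 0.000571) and -1.75 ± 0.21 in CAST (edgeR adjusted p = 1.19e-05), and the B6 value came under 2-fold without B6 male 3 (-0.96), without B6 male 4 (-0.97) or without B6 female 5 (-0.93). B6 males exceeded CAST males by 1.19 ± 0.21 (edgeR adjusted p = 4.64e-05) with no overlap, and in females Sult1d1 differed by 0.48 ± 0.21 (edgeR adjusted p = 0.0695). The larger sex difference in CAST was not past the threshold as an interaction (0.71 ± 0.30, edgeR adjusted p = 0.249).

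Sult1b1, which sulfonates thyroid hormones and small phenols, differed mainly between strains. It had 5.37, 4.21, 3.18, 3.25 and 4.54 FPKM in B6 males and 5.03, 5.57, 4.8, 2.63 and 5.03 in B6 females. In CAST it had 1.13, 0.693, 0.662, 0.695 and 0.785 FPKM in males and 1.19, 1.32, 1.07, 0.976 and 1.19 in females. Each B6 liver lay above each CAST liver. The log2 fold change of Sult1b1, B6 over CAST, was 2.44 ± 0.19 in males (edgeR adjusted p = 1.34e-11) and 1.92 ± 0.18 in females (edgeR adjusted p = 5.06e-10). The sex difference was -0.14 ± 0.18 in B6 (edgeR adjusted p = 0.714) and -0.65 ± 0.15 in CAST (edgeR adjusted p = 0.0124), under 2-fold.

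Sult1c2, a low-level member that acts on small phenols, ran the other way between strains. It ranged from 0.672 to 1.35 FPKM in males and 1.33 to 2.36 in females of B6, and from 1.82 to 3.21 and 2.57 to 3.81 in CAST. B6 and CAST livers of the same sex did not overlap. Sult1c2 differed, B6 over CAST, by -1.17 ± 0.19 in males (edgeR adjusted p = 7.85e-06) and by -0.93 ± 0.18 in females (edgeR adjusted p = 9.31e-05), the latter under 2-fold. Its sex difference was -0.74 ± 0.19 in B6 (edgeR adjusted p = 0.0236), under 2-fold, and -0.49 ± 0.15 in CAST (edgeR adjusted p = 0.0643).

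Sult1e1, the estrogen sulfotransferase, was near the limit of detection in all 4 groups, with 0 to 6 counts a liver and at most 0.143 FPKM. Its groups overlapped in all 4 comparisons, and no difference was detectable at this depth (Sult1e1 in B6 -2.08 ± 0.85, edgeR adjusted p = 0.165, and in CAST -1.07 ± 0.91, edgeR adjusted p = 0.569). Without B6 male 2, which held 4 of the 5 counts of the B6 males, the B6 value was -3.42 (edgeR adjusted p = 0.0478).

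**Figure D3:**
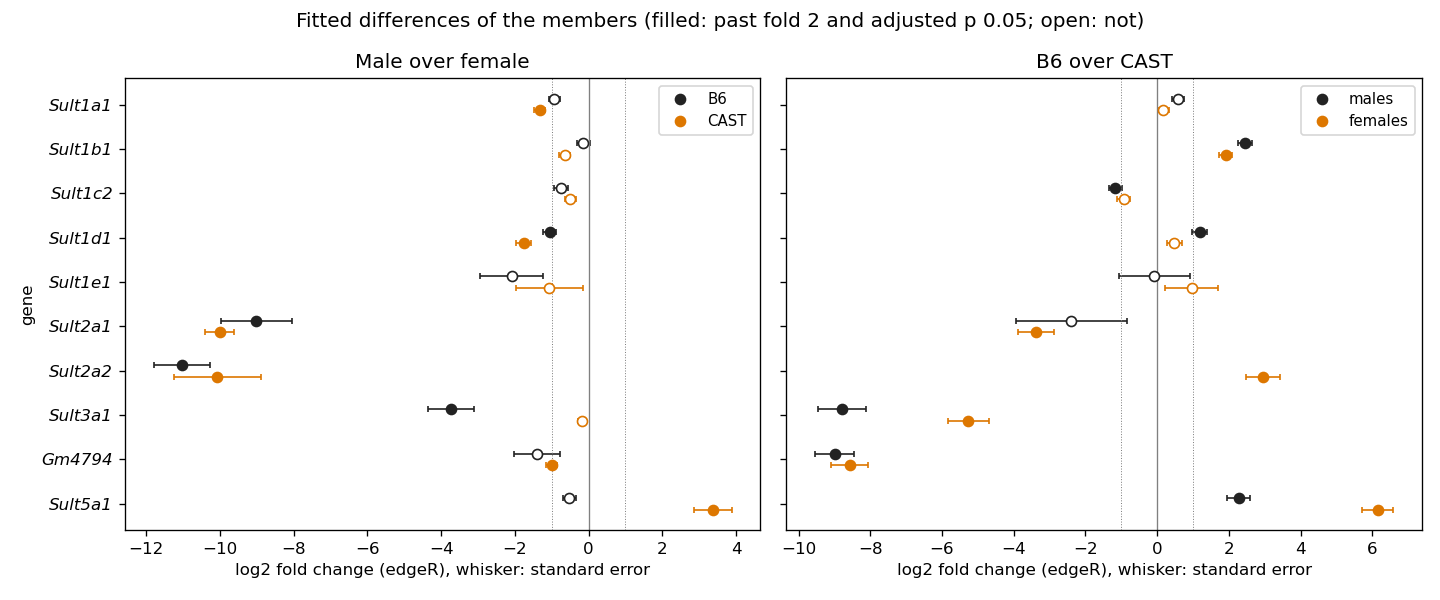
Fitted log2 fold changes of the members, male over female in B6 and CAST (left) and B6 over CAST in males and females (right), with standard errors as whiskers. Filled points passed a 2-fold change and an adjusted p of 0.05, dotted lines mark 2-fold, Sult2a2 in males is left out because both groups held 3 counts or fewer, and the Sult2a2 point in CAST depends on the prior count because CAST males held none. Points left of 0 are higher in females (left panel) or in CAST (right panel).

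By the threshold used for all genes, a change over 2-fold with an adjusted p under 0.05, 4 of the 10 members were called for sex in B6 (Sult2a1, Sult2a2, Sult3a1, Sult1d1), where 2.4% of the 25690 genes tested were called. All 4 were female-biased, against 1.24% of all genes, and none was male-biased, against 1.16%. In CAST 6 members were called for sex, against 2.05% of 24722 genes, of which Gm4794 was called by the edgeR fit with TMM scaling and by edgeR's exact test but came under 2-fold by DESeq2 (-0.99), by limma (-0.92) and with scaling by library size alone (-0.92). Female bias was called for Sult2a1, Sult2a2, Sult1a1, Sult1d1 and Gm4794, against 1.17% of all genes, and male bias for Sult5a1, against 0.882%. The median log2 fold change of the members was -1.23 in B6 and -1.04 in CAST, and over all genes it was 0.02 and -0.01.

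Between strains, 6 of the 10 members were called in males and 6 in females, against 23.8% and 24.4% of the 25779 genes tested in one fit of all 20 libraries. In males 3 were higher in CAST (Gm4794, Sult3a1, Sult1c2; background 10.4%) and 3 higher in B6 (Sult1b1, Sult1d1, Sult5a1; background 13.4%). In females 3 were higher in CAST (Gm4794, Sult3a1, Sult2a1; background 10.4%) and 3 higher in B6 (Sult1b1, Sult2a2, Sult5a1; background 13.9%). The median log2 fold change was 0.33 in females over the 10 members and -0.08 in males over the 9 with more than 3 counts in a group, against 0.00 and 0.07 over all genes. For the difference of the sex effects between strains, an adjusted p under 0.05 alone was required, and 2 members passed (Sult3a1 and Sult5a1), against 2.28% of genes (372 positive and 216 negative, or 192 and 300 with scaling by library size alone, under which both genes stayed past the threshold).

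The order of the members by FPKM changed with strain and sex. In B6 livers Sult1a1 was the highest member, at 52.1 ± 12.4 FPKM (SD, n = 5) in males and 101.2 ± 11.8 in females, with no overlap with the next, which was Sult1d1 in males (18.9 ± 5.08) and Sult3a1 in females (42.3 ± 9.55). In B6 females Sult3a1, Sult1d1, Sult2a2 and Sult2a1 overlapped with their neighbours in the order. In CAST livers Sult3a1 was the highest, at 1421 ± 194 FPKM in males and 1534 ± 179 in females, followed by Gm4794 at 423 ± 83.2 and 808 ± 190, each without overlap with the next. Next came Sult1a1 in CAST males and Sult2a1 in CAST females.

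The FPKM of the 10 genes summed to 88.3 ± 19.2 in males and 258 ± 51.8 in females of B6, and to 1894 ± 283 and 2666 ± 373 in CAST. Sult3a1 and Gm4794 made up 4.94% ± 7.12 of this sum in males (0.728% ± 0.418 over B6 males 1 to 3) and 17.9% ± 5.48 in females of B6, and 97.4% ± 0.37 and 87.7% ± 3.22 in CAST. Left without that pair, the sums were 84.1 ± 20.4, 213 ± 55.0, 49.6 ± 11.2 and 325 ± 84.1 FPKM in the same order. The greater sum in CAST thus lay in the Sult3a1 pair in males, and outside it the CAST males had the lowest level of the 4 groups.

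**Figure D4:**
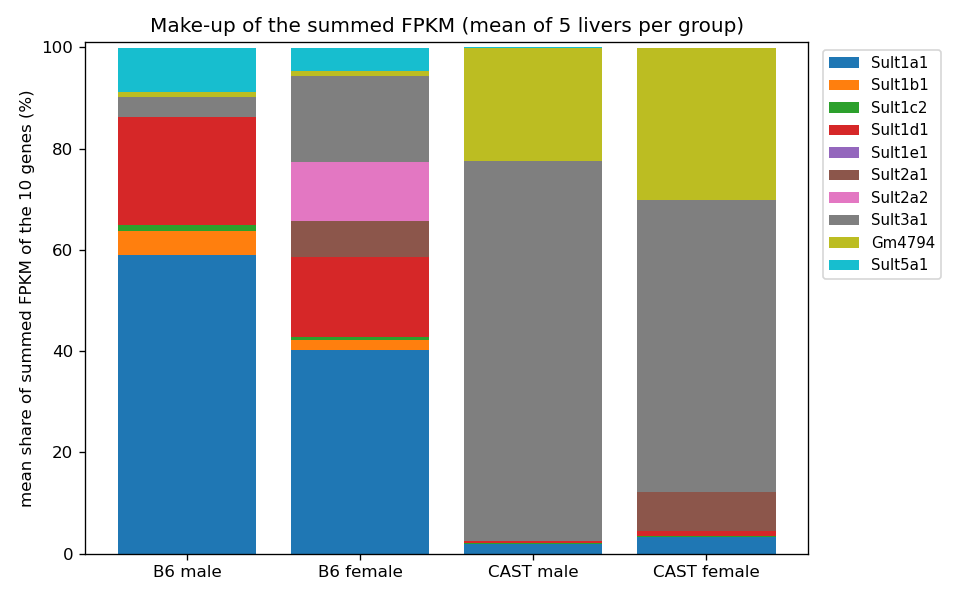
Mean share (%) of each member in the summed FPKM of the 10 genes, stacked, for each sex and strain (5 livers each, no error drawn). Sult1a1 is the largest part in B6 (59.0% in males, 40.2% in females) and Sult3a1 in CAST (75.1% and 57.7%).

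Among 10 other sulfotransferase genes, most reads fell on members of the Sult2a subfamily, of which Gencode types Sult2a7 as a pseudogene. In CAST females, Sult2a3, Sult2a4, Sult2a5 and Sult2a6 had 12.9 ± 12.2, 11.8 ± 5.27, 14.7 ± 5.47 and 0.663 ± 0.566 FPKM (SD, n = 5). CAST female 4 was the highest in each, and without it Sult2a3 and Sult2a6 were at 7.63 ± 3.83 and 0.419 ± 0.177 FPKM (n = 4). All 4 were called as female-biased in CAST among 7 genes tested, against 1.17% of all genes. In CAST males Sult2a3 and Sult2a5 had no counts, so that they were at least 585-fold and 945-fold higher in females, while Sult2a4 (3 counts in males) and Sult2a6 (1 count) were higher by ratios of 692 (exact 95% interval 237 to 3360) and 105 (18.5 to 4170). In B6, Sult2a5 (119 counts in females, 0 in males, at least 59.1-fold, or 36.0-fold without B6 female 4, which held 61 of them) and Sult2a7 (log2 fold change -2.54 ± 0.33, edgeR adjusted p = 5.81e-05) were called, both female-biased, among 6 tested, against 1.24% of all genes. The coding sequences of Sult2a3 to Sult2a6 are 89.74% to 94.87% identical to that of Sult2a1, so which of them a read came from is uncertain. In females 6 of 7 were called between strains, against 24.4% of all genes, with Sult2a3, Sult2a4, Sult2a5, Sult2a6 and Sult6b1 higher in CAST and Sult2a7 higher in B6, and in males 2 of 7 were called, against 23.8%, with Sult2a7 higher in B6 and Sult6b1 (29 counts in CAST, 0 in B6, at least 12.8-fold, or 7.45-fold without CAST male 2, which held 19 of them) higher in CAST. The median log2 fold change of the list, with genes at no counts set to their limit, was -2.54 in B6 and -7.73 in CAST for sex, and -4.72 between strains in females.

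One more sulfotransferase gene, 2810007J24Rik, named Sult2a8 by RefSeq and looked at after its values were seen, was higher in males, by less than 2-fold. It had 204 ± 31.8 FPKM in males and 153 ± 18.3 in females of B6, and 195 ± 31.3 and 129 ± 8.66 in CAST. The log2 fold change of 2810007J24Rik, male over female, was 0.44 ± 0.12 in B6 (edgeR adjusted p = 0.0239) and 0.52 ± 0.11 in CAST (edgeR adjusted p = 0.00442), both under 2-fold, and B6 over CAST it was 0.10 ± 0.12 in males (edgeR adjusted p = 0.518).

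Genes within 100 kb of these clusters did not share one pattern. Sult2a5 and Sult2a4, 62705 and 72267 bases from the Sult2a1 and Sult2a2 pair, were female-biased in CAST, as given above. Both were higher in CAST than in B6 females (-4.47 ± 0.38 and -8.20 ± 0.46), in the direction of Sult2a1 and opposite to Sult2a2. Rsph4a, a radial spoke gene of cilia that begins 25595 bases beyond the end of Sult3a1, was at 0.198 to 0.486 FPKM in B6 females and at or below 0.0663 FPKM in the other 3 groups. It was called as female-biased in B6 (-4.21 ± 0.40, edgeR adjusted p = 1.41e-06) and for the difference of the sex effects (Rsph4a -4.64 ± 0.63, edgeR adjusted p = 5.24e-05). It was higher in B6 than in CAST females (3.03 ± 0.38, edgeR adjusted p = 1.58e-07), opposite to Sult3a1. In males Rsph4a was higher in CAST than in B6 (-1.61 ± 0.51, edgeR adjusted p = 0.0128), in the direction of Sult3a1. That male value rests on 1 to 7 counts a liver in B6 and 2 to 18 in CAST, and the FPKM ranges overlapped. Zufsp, on the other side of Rsph4a, passed the interaction too (-0.91 ± 0.21, edgeR adjusted p = 0.0183). In the region of Sult1b1, Ugt2b38, a glucuronosyltransferase gene 89136 bases from Sult1b1, was male-biased in B6 (3.92 ± 0.33, edgeR adjusted p = 2.84e-07) where Sult1d1 was female-biased, and its sex effects differed between strains by 2.77 ± 0.59 (edgeR adjusted p = 0.0102). Ugt2a1 was higher in CAST than in B6 by -2.12 ± 0.39 in males and -1.89 ± 0.35 in females (edgeR adjusted p = 5.40e-05 and 6.09e-05).

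Of 10 genes for making the sulfate donor and moving sulfate, 1 was called for sex in B6 and 0 in CAST, against 2.4% and 2.05% of all genes (median log2 fold change -0.13 and -0.06). In CAST 4 of 9 had an unadjusted p under 0.05 by edgeR, and DESeq2 and limma called 0. Papss2, an enzyme that makes PAPS, had 23.2 ± 2.39 FPKM in B6 males and 50.2 ± 13.4 in B6 females (-1.09 ± 0.14, edgeR adjusted p = 6.85e-05), and in CAST it was at -0.59 ± 0.12 (edgeR adjusted p = 0.00531), under 2-fold. Between strains, 3 of the 10 were called in each sex, against 23.8% of all genes in males and 24.4% in females (median -0.11 and -0.03). Impad1, a phosphatase that clears the spent donor, was higher in B6 (2.23 ± 0.16 in males and 2.26 ± 0.15 in females, edgeR adjusted p = 1.39e-12 and 6.74e-13). The sulfate transporter Slc26a2 was higher in CAST (-2.17 ± 0.22 and -1.43 ± 0.22, edgeR adjusted p = 3.49e-09 and 6.77e-06). Slc26a1, another sulfate transporter, had 26.4 ± 4.07 FPKM in B6 males and 0.238 ± 0.0741 in CAST males, and it lies within Idua on the opposite strand of chromosome 5, so that reads of Slc26a1 and Idua are told apart only where the counting used strand.

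Of 5 sulfatase genes and their activators, 4 were tested and 1 was called for sex in each strain, against 2.4% of all genes in B6 and 2.05% in CAST (median log2 fold change -0.01 in B6 and 0.08 in CAST). Arsa, a lysosomal sulfatase, was male-biased at 1.27 ± 0.10 in B6 and 1.19 ± 0.15 in CAST (edgeR adjusted p = 7.26e-08 and 4.05e-05). None of the sulfatase list, 0 of 4, was called between strains by edgeR, DESeq2 or limma (unadjusted edgeR p under 0.05 for 2 in males and 3 in females). Over all genes edgeR called 23.8% in males and 24.4% in females, so 0 among so few genes says little. Among 8 nuclear receptor genes, 2 were called for sex in B6 and 1 in CAST, against 2.4% and 2.05% of all genes (median -0.02 and -0.13). Nr1i3 (the receptor CAR) was female-biased at -1.09 ± 0.22 in B6 and -1.05 ± 0.13 in CAST (edgeR adjusted p = 0.00422 and 2.99e-05), the CAST value coming under 2-fold by limma (-0.97) and with scaling by library size alone (-0.96), and Esr1 (estrogen receptor alpha) at -1.14 ± 0.14 in B6 (edgeR adjusted p = 3.79e-05) and at -0.99 ± 0.10 in CAST (edgeR adjusted p = 1.24e-06), the latter under 2-fold. Between strains, 0 of the 8 were called by edgeR, DESeq2 or limma (unadjusted edgeR p under 0.05 for 3 in males and 4 in females), against 23.8% of all genes in males and 24.4% in females by edgeR.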

How the data were processed

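PolyA-selected libraries from 20 frozen livers were sequenced as 50-base read pairs. Per the labels and the study's methods, the authors mapped B6 reads to mm9 and CAST reads to mm9 carrying CAST variants (TopHat2), counted unique primary reads per gene (featureCounts), and deposited raw counts in 1 table per strain. The deposited FPKM values were made by the authors from such counts, scaled to gene length and library size. Whether counting used strand is not given in the sources used here. The authors' own edgeR fold changes and p-values were not used, nor were 24 columns of other values.

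Sex was tested within each strain, and strain and interaction in 1 fit of all 20 libraries, with edgeR 4.0.16 (TMM scaling, quasi-likelihood test; genes with 1 read or more in total were tested and p-values adjusted over them by Benjamini-Hochberg) in R 4.3.3. A gene was called past 2-fold at an adjusted p under 0.05, or at that p alone for the interaction. The fit of all libraries held the 22605 genes in both count tables and 3174 found in 1 table whose FPKM was 0 in all livers of the other strain, with counts set to 0 there, and 2028 other genes in 1 table were left out. Total counts were 7969482 to 35328573 a library. Intervals and limits (95% exact, 3 counts over a group) cover counting error only. DESeq2 1.42.0, limma 3.58.1 on log2(FPKM + 0.1 or + 1), other scalings, filters, thinning, summed copies and leaving out each liver were alternatives. On simulated data, 194 of 200 genes changed 4-fold were recovered in the B6 sex test (25690 genes), 195 in CAST (24722) and 180 in the interaction (25779). False calls were 10, 10 and 11. The changed genes had a mean of at least 10 counts, so recovery near 0 counts was not measured. Every member was described, and other genes came from lists or lay within 100 kb. The members and lists were chosen with earlier results of these data known.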

Additional observations from a re-analysis of the deposited data

Results flagged for a closer look

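In 39 groups of 5 livers tested for a single far value (Dixon's test, critical value 0.71, which chance passes in about 1 in 20 groups), 5 values stood apart. B6 female 4 had the highest Sult2a1 (68.0 FPKM) and Sult2a2 (81.2 FPKM) and the lowest Sult1b1 (2.63 FPKM) of its group. CAST female 3 had the lowest Sult1a1 of its group (54.9 FPKM), and CAST male 1 the highest Sult1b1 (1.13 FPKM).

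The sex difference differed between strains, by a test of the difference itself, for 2 members. For Sult3a1 the male over female log2 fold change in B6 minus that in CAST was -3.526 (edgeR adjusted p = 0.00495), and for Sult5a1 it was -3.882 (edgeR adjusted p = 9.63e-05).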

How the results depend on the processing

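Of the counts of members called and the summed levels, 143 recomputed values stayed near the main value and 6 moved further. Staying near did not mean an unchanged count. With no fold threshold, 6 members were called for sex in B6 in place of 4, and this is among the 143. The 2 members called for the interaction became 1 by DESeq2 (which gave Sult3a1 no adjusted p) and 4 by limma on log2(FPKM + 0.1), 4 on log2(FPKM + 1) and 4 with a mean FPKM of at least 0.1. Over all genes these limma fits gave 660, 803 and 868 interaction calls, against 588. With CPM in place of FPKM, the log2 ratio of the summed members, B6 over CAST, went from -4.438 to -3.816 in males and from -3.383 to -2.965 in females. The cause was not tested. The 6 members called for sex in CAST became 5 by DESeq2, with its size factors, with library size alone, with a filter on low counts, with thinned counts and by limma on log2(FPKM + 0.1), and 4 on log2(FPKM + 1), with Gm4794 under 2-fold in each. Leaving out 1 liver gave 3 to 5 members for sex in B6, 5 to 6 in CAST, 6 to 6 for strain in males, 6 to 7 in females and 2 to 2 for the interaction. Sult1e1 between strains in males (-0.08) ranged from -1.447 to 0.8238 when 1 liver was left out, and was 0.4508 without B6 males 4 and 5. The Gm4794 interaction was 0.00152 by limma on log2(FPKM + 1). The Sult2a1+Sult2a2 interaction was -0.1017 without B6 males 4 and 5, an alternative chosen after seeing the data, against 0.18. For single members and summed pairs, 1341 values were unchanged in direction and call, 21 gained and 20 lost a call, 8 changed sign and 6 had no adjusted p by DESeq2 (3 of Sult1e1 and 3 of Sult3a1).

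The labels do not say that replicate numbers pair the livers. Same-numbered livers correlated by a mean of 0.0631 in B6 and 0.125 in CAST between sexes, with 1 and 2 of 5 pairs over 0.1. Livers of other numbers gave means of -0.0157 and -0.0313. Between strains, same-numbered females correlated by a mean of 0.0754 (0.0261 to 0.13) and males by -0.0333. Whether livers of 1 number shared a batch is not settled by these values, and the main fits used no pairing. With the replicate block, 5, 5, 6, 6 and 2 members were called for sex in B6, sex in CAST, strain in males, strain in females and the interaction. Over all genes the block gave 761, 606, 5673, 5791 and 667 calls in that order, against 617, 508, 6146, 6281 and 588. The prior degrees of freedom with the block were infinite in both sex fits, which makes those p-values small.

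Over all genes, calls for sex were 317 in B6 and 292 in CAST by limma on log2(FPKM + 0.1), 151 and 148 on log2(FPKM + 1) and 1939 and 1396 with no fold threshold, against 617 and 508. Strain calls were 3651 and 3693, 1710 and 1709, and 9896 and 10290 in the same order, against 6146 and 6281. DESeq2 gave 1172 interaction calls against 588. Depth limits Sult1e1, and Sult2a1 and Sult2a2 in males.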
